A study of Mus musculus with 4 samples.

Results

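The Zscan4 cluster of mouse chromosome 7 was examined in embryonic stem cells (ESCs) after depletion of CNOT1. Its members are the 6 genes named Zscan4a, Zscan4b, Zscan4c, Zscan4d, Zscan4e and Zscan4f, taken by name from the 50559 genes of the deposited count table. All 6 had enough counts to be among the 18144 genes tested. The same table lists 3 annotated pseudogenes of the family in the cluster, Zscan4-ps1, Zscan4-ps2 and Zscan4-ps3, which were also tested and are described beside the members.

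Zscan4 genes encode nuclear proteins with a SCAN domain, through which such proteins pair, and a run of C2H2 zinc fingers that bind DNA. They are transcribed in a burst in the 2-cell embryo and, in ESC cultures, in a small and changing fraction of the cells, where they mark the 2-cell-like (2C) state. DUX, a homeodomain factor, switches on this program, and ZSCAN4 is known for its links to telomere lengthening by recombination and to a transient loss of DNA methylation.

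The study compared ESCs of the E14 line transfected with an siRNA against Cnot1 (siCnot1) with the same cells given a non-targeting siRNA (siNT), to ask how CNOT1, the scaffold of the CCR4-NOT deadenylase, bears on 2C transcripts. Both groups received 150 nM siRNA, were grown without feeder cells on gelatin in serum replacement with leukemia inhibitory factor, and were collected after 48 h. There were 2 independent biological replicates per group and 4 poly(A)+ libraries in all. The study's methods describe ESCs with a tdTomato reporter driven by the MERVL promoter, and the sources used here do not name which of its Cnot1 siRNAs was given, so both groups represent 1 line and the siCnot1 group a transient knockdown.

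The 9 loci lie within 819872 bases of each other and the 6 members within 608078 bases. In the deposited table, whose positions are those of GRCm39, Zscan4a lies at chromosome 7, 10528168 to 10532992 (minus strand), and Zscan4b at 10634667 to 10638977 (minus strand). Zscan4c lies at 10739672 to 10744474 (plus strand), Zscan4d at 10895570 to 10900075 (minus strand), Zscan4e at 11040296 to 11044609 (minus strand) and Zscan4f at 11131842 to 11136245 (plus strand). Zscan4-ps1 sits between Zscan4c and Zscan4d at 10799066 to 10803618 (minus strand), and Zscan4-ps2 (11248214 to 11252615) and Zscan4-ps3 (11343235 to 11348039) follow Zscan4f on the plus strand. Both strands are thus used, and members on the same strand are not all neighbours. The table gives 4 exon intervals for each locus except Zscan4e, which has 1 interval of 4314 bases covering the whole gene.

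Annotations differ on which copies are genes. RefSeq (GRCm38.p6) lists Zscan4b, Zscan4c, Zscan4d and Zscan4f as protein-coding, Zscan4a as a transcribed pseudogene and Zscan4e and the 3 named pseudogenes as pseudogenes. GENCODE M21 lists Zscan4a as an unprocessed pseudogene and the other 8 loci as protein-coding, with reading frames of 505 codons in Zscan4b and Zscan4e and 506 in the other 6. Each of these 8 frames held 4 matches to the C2H2 zinc finger pattern and no internal stop codon. A division into genes and pseudogenes by name therefore does not separate the copies with an annotated open frame from those without one.

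The promoters of the members that RefSeq lists as protein-coding are nearly the same sequence. The RefSeq promoter table (GRCm38.p6, a build other than that of the count table) held 4 of the 6 members, Zscan4b, Zscan4c, Zscan4d and Zscan4f. Only these 4 are shown for that reason, and whether the promoters bear on the changes below was not tested. The stretch printed is the 216 bases that all 4 share upstream of the first annotated start, given 5′ to 3′ on the strand of the gene, with the 12 positions at which the 4 genes are not all alike in capitals.
Zscan4b (chr7:10905051-10905266, minus strand): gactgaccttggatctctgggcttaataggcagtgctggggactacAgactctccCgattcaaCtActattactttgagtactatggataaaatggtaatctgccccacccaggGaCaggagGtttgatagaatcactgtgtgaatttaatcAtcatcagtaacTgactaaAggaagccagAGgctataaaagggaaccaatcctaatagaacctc
Zscan4c (chr7:11005506-11005721, plus strand): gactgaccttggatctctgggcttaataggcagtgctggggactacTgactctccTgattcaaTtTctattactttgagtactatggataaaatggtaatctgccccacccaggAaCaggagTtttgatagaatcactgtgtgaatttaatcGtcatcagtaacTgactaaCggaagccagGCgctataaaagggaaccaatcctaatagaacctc
Zscan4d (chr7:11166183-11166398, minus strand): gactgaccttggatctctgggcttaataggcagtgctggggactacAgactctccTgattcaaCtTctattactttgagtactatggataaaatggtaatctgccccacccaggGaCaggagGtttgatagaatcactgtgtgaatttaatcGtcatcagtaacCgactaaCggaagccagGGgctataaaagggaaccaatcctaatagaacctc
Zscan4f (chr7:11397699-11397914, plus strand): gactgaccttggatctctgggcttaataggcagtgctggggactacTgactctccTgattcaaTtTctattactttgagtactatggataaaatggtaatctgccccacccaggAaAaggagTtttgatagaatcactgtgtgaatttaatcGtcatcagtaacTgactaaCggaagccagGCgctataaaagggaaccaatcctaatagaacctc
Zscan4c and Zscan4f differed at 1 of the 216 positions, Zscan4b and Zscan4d at 6, Zscan4c and Zscan4d at 6, Zscan4d and Zscan4f at 7, Zscan4b and Zscan4c at 10, and Zscan4b and Zscan4f at 11. In the window of 300 bases around each start, searched on both strands, the TATA word TATAAA occurred once in each of the 4 promoters, beginning 31 bases before the annotated start in Zscan4b and Zscan4f, 54 before it in Zscan4c and 65 before it in Zscan4d. Of the 32851 promoters in the table, 13.6% held it. GATTNAATC, a core of the DUX motif (0.268% of promoters), and TGCACAC, a word bound by ZSCAN4 (4.4% of promoters), were in none of the 4 windows. TGATTCAA, which overlaps the DUX core in letters and was chosen after the sequences were seen, was present in Zscan4c, Zscan4d and Zscan4f and absent from Zscan4b, against 0.581% of all promoters.

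The transcripts are also near-identical, which bears on how reads could be assigned. Among the longest GENCODE M21 transcripts of the 9 loci, identity over the aligned bases ranged from 96.6% (Zscan4b and Zscan4d) to 99.8% (Zscan4f and Zscan4-ps2), and among the 6 members its highest value was 99.7% (Zscan4b and Zscan4e). Reads were 150 bases long, so each transcript was cut into all windows of 150 bases and each window was looked up in the other loci. In Zscan4d 87.0% of the windows were found nowhere else among the transcripts searched, and in Zscan4a 74.9%. The share was 39.0% in Zscan4c, 31.6% in Zscan4b, 22.6% in Zscan4e and 13.8% in Zscan4f. Zscan4d and Zscan4a are thus the members a single read could most often tell apart, and Zscan4f the one it could least. The overlap was uneven, since Zscan4b shared 67.9% of its windows with Zscan4e and Zscan4f shared 69.0% of its own with Zscan4-ps2 and 56.8% with Zscan4c. Reads were sequenced in pairs, which gives more to tell copies apart than a single window does, and how the counting treated reads that fit several places is not given in the sources used here. The level of a single member therefore holds the split of reads that was used, and the summed counts of the copies are less dependent on it.

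**Figure D1:**
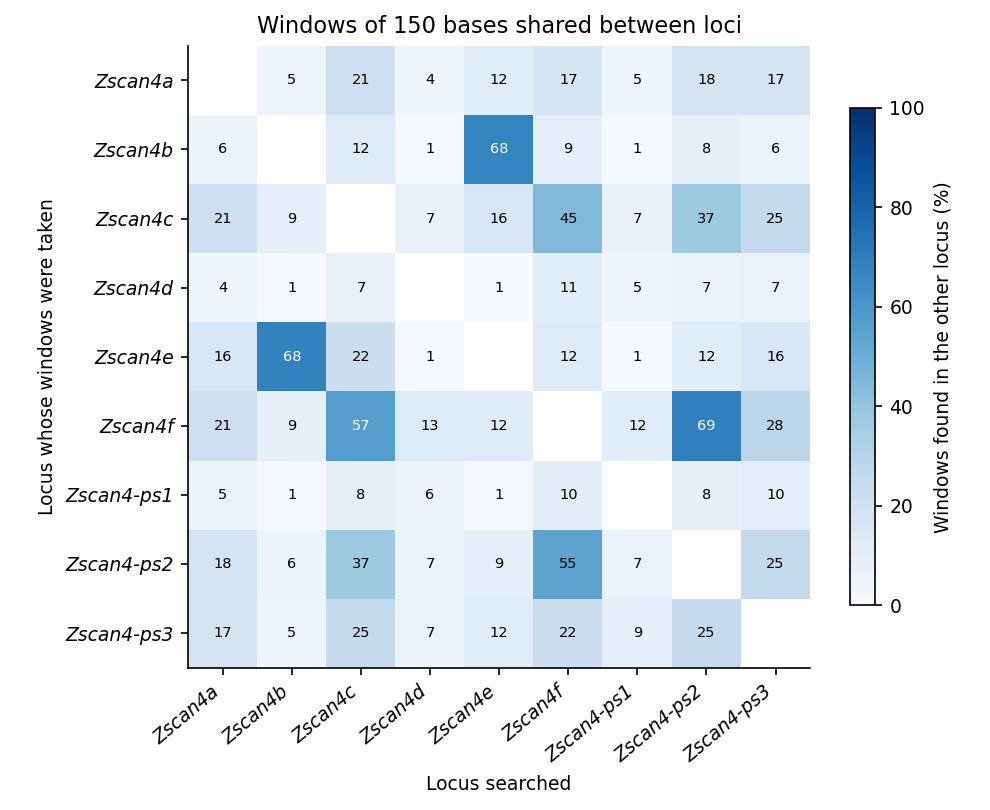
Percentage of the 150-base windows of each locus (rows) that were also found in each other locus (columns), in GENCODE M21 transcripts of the 9 Zscan4 loci. The darkest cells are Zscan4b with Zscan4e (68% in both directions) and Zscan4f with Zscan4-ps2 (69%), and the palest rows are Zscan4d and Zscan4-ps1.

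Library totals on genes ran from 32135824 to 32557440 counts, so a count of 3 corresponded to 0.0921 to 0.0934 CPM (counts scaled to library size). All levels printed below lie above this one except where a count under 3 is given. Cnot1 itself, the target, was at 913 and 986 normalized CPM in siNT and at 185 and 192 in siCnot1 (log2 fold change -2.33, SE 0.0587, adjusted p = 2.365e-18 in edgeR, adjusted over all genes tested by the Benjamini-Hochberg method). Of 8 ESC markers tested, Pou5f1 and Nanog stood at 878 to 1144 CPM in the 4 libraries. In siCnot1 5 of the 8 were lower, by 0.24 or less on the log2 scale, against 14.7% of all genes tested. Of these 5 only Pou5f1 was still called with library totals as scaling, Nanog, Esrrb, Sox2 and Tfcp2l1 being lost. Of 16 markers of other cell types, 1 was at 0 in every library and 13 were tested. Of these 13, 2 were higher and 1 lower, near or below the 15.0% higher and 14.7% lower among all genes tested. The higher ones were Col1a1, a collagen of fibroblasts, at 1.25 and 1.53 CPM in siNT and 3.46 and 3.91 in siCnot1, and Vim. Pax6 was lower, and Gata4 did not pass (log2 fold change 0.79, adjusted p = 0.06937, and 0.0386 with library totals). The summed level of these 16 was 283 to 285 CPM in siNT and 313 to 314 in siCnot1, and the part of such cells in the results below was not tested.

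The cluster as a whole was already expressed in control ESCs and rose by a like amount in both siCnot1 libraries. The 6 members together had 2212 and 2206 counts in the siNT libraries and 6313 and 6403 in the siCnot1 libraries. After scaling this was 71.1 and 70.4 CPM in siNT and 188 and 191 CPM in siCnot1. Both siCnot1 libraries stood above both siNT libraries, and the replicates of a group lay within 3 CPM of each other. The sum rose 2.68-fold, a log2 fold change of 1.42 (SE 0.0617, 95% confidence interval 1.30 to 1.55, adjusted p = 1.937e-13 in a fit in which 1 row held the sum). In libraries of whole cultures, more cells that express Zscan4 and more Zscan4 RNA per expressing cell cannot be told apart. The share of tdTomato-positive cells, which report MERVL rather than Zscan4, rose after Cnot1 silencing in the study's flow cytometry.

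All 6 members were higher in siCnot1 at an adjusted p under 0.05, a call that 15.0% of the genes tested received in that direction, and 0 of 6 were lower (14.7% of the genes tested). All 6 also passed the study's threshold, an unadjusted p of at most 0.05 with a log2 fold change of at least 1 in size. As higher, 6.18% of the genes tested passed it. In each of the 6 the siNT and siCnot1 libraries did not overlap, as was so with siCnot1 above siNT in 32.7% of the genes tested. The median log2 fold change of the 6 was 1.54, with a range of 1.16 to 1.84, and that of all genes tested was 0.0084. Since the 6 share sequence, their calls are not independent of each other.

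Zscan4d, a protein-coding copy and the one best told apart by its sequence, had the most counts. It had 760 counts in each siNT library and 2198 and 2344 in the siCnot1 libraries, or 24.4 and 24.2 CPM against 65.6 and 70.1 CPM. Its log2 fold change of 1.48 (SE 0.0873, adjusted p = 4.58e-11) had the 7th smallest p of the 18144 genes tested, while its fold change ranked 597 from the highest.

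Zscan4a, the copy that both annotations list as a pseudogene, was next. It had 643 and 540 counts in siNT and 1410 and 1418 in siCnot1, or 20.7 and 17.2 CPM against 42.1 and 42.4 CPM. The siNT libraries differed from each other more than the siCnot1 libraries did, and the groups did not overlap. Its log2 fold change, 1.16 (SE 0.103, 95% confidence interval 0.94 to 1.37, adjusted p = 1.79e-08), was the smallest of the 6.

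Zscan4c, a protein-coding copy that shares much of its sequence with Zscan4f, had 350 and 369 counts in siNT and 1001 and 938 in siCnot1, or 11.3 and 11.8 CPM against 29.9 and 28.0 CPM. Its log2 fold change was 1.33 (SE 0.111, adjusted p = 6.435e-09). Zscan4f had 94 and 161 counts in siNT and 497 and 480 in siCnot1, or 3.02 and 5.14 CPM against 14.8 and 14.3 CPM. The siNT libraries of Zscan4f differed beyond counting error (exact Poisson 95% intervals 76.0 to 115 and 137 to 188 counts), and both siCnot1 libraries were well above them. Zscan4f had the largest log2 fold change of the 6 at 1.84 (SE 0.185, 95% confidence interval 1.45 to 2.22, adjusted p = 1.037e-07), and the value was 2.27 without siNT replicate 2. Without siNT replicate 1 it was 1.51, below Zscan4b (1.74) and Zscan4e (1.57), so its first place depends on that library.

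Zscan4e and Zscan4b share most of their sequence with each other. Zscan4e had 297 and 315 counts in siNT and 974 and 1019 in siCnot1, or 9.55 and 10.1 CPM against 29.1 and 30.5 CPM, with a log2 fold change of 1.60 (SE 0.113, adjusted p = 6.392e-10). Zscan4b, a protein-coding copy, was the member with the fewest counts, 68 and 61 in siNT and 233 and 204 in siCnot1, or 2.19 and 1.95 CPM against 6.96 and 6.10 CPM, with a log2 fold change of 1.66 (SE 0.224, adjusted p = 5.461e-06). Neither gene showed any overlap of the groups. The 95% confidence interval of Zscan4f (from 1.45) lay above that of Zscan4a (up to 1.37), and the intervals of all other pairs of members overlapped. That separation rests on siNT replicate 1: without it the log2 fold changes of Zscan4f and Zscan4a were 1.51 and 1.29. Differences in fold change between members were not tested in the model.

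**Figure D2:**
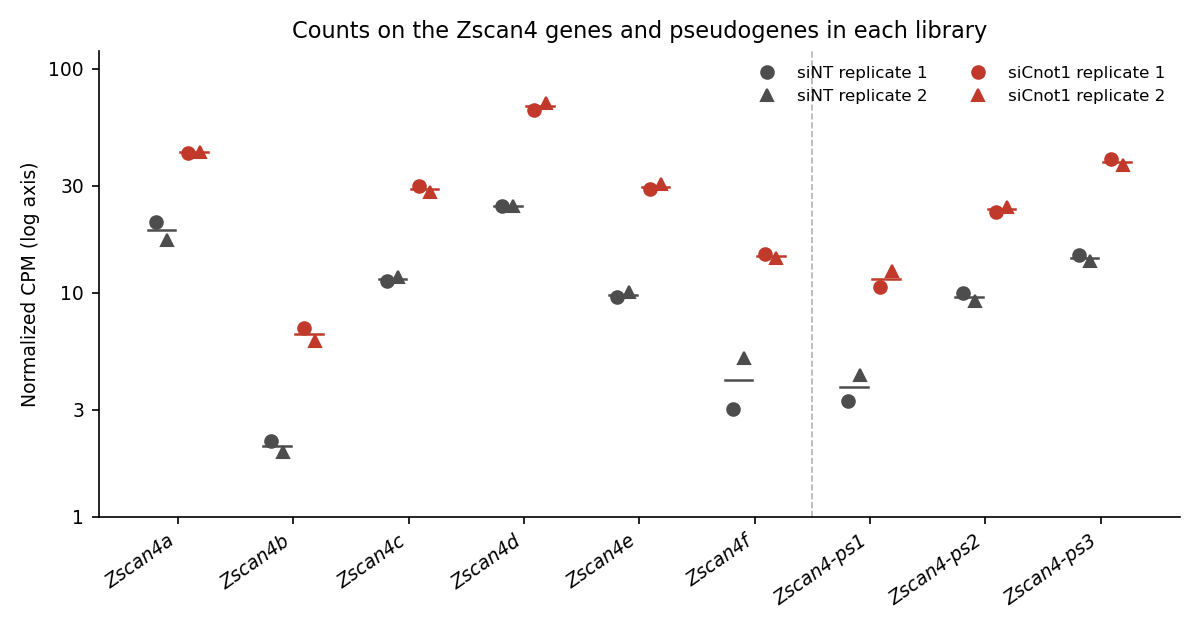
Normalized CPM (log axis) of the 6 Zscan4 genes and, right of the dashed line, the 3 pseudogenes in the 2 siNT (grey) and 2 siCnot1 (red) libraries, with a bar at the mean of each group. In all 9 loci both siCnot1 libraries lie above both siNT libraries, and the widest gap between replicates is that of Zscan4f in siNT (3.02 and 5.14 CPM).

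Per kilobase of listed exon, the order of the members changed little between the groups. In siNT the mean CPM per kb was 12.2 ± 0.0648 for Zscan4d, 8.40 ± 1.08 for Zscan4a, 5.06 ± 0.162 for Zscan4c, 2.27 ± 0.0824 for Zscan4e, 2.23 ± 0.818 for Zscan4f and 1.18 ± 0.0966 for Zscan4b (SD, n = 2). In siCnot1 it was 34.1 ± 1.57 for Zscan4d, 18.7 ± 0.0884 for Zscan4a, 12.7 ± 0.575 for Zscan4c, 7.98 ± 0.191 for Zscan4f, 6.90 ± 0.225 for Zscan4e and 3.72 ± 0.347 for Zscan4b (SD, n = 2). Zscan4d was first and Zscan4b last in both groups. The only neighbours in these orders whose libraries overlapped were Zscan4e and Zscan4f in siNT. The level of Zscan4e per kb rests on its listed length of 4314 bases, whereas its longest GENCODE M21 transcript has 1745, so its place in the order depends on the gene model.

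Most of the added RNA came from the members that were already highest. Of the gain in the summed level, 119 CPM, Zscan4d accounted for 36.5%, Zscan4a for 19.5%, Zscan4e for 16.8%, Zscan4c for 14.6%, Zscan4f for 8.82% and Zscan4b for 3.74%. Zscan4e is listed as 1 interval of 4314 bases covering the whole gene, which could take in reads from between exons. Its part of the gain and its share are therefore not fully comparable with those of the other members. The mix of members changed far less than the total. Zscan4d made up 34.4% and 34.5% of the 6-gene counts in siNT and 34.8% and 36.6% in siCnot1. Zscan4a made up 29.1% (Wilson 95% interval 27.2 to 31.0) and 24.5% (22.7 to 26.3) in siNT and 22.3% (21.3 to 23.4) and 22.1% (21.1 to 23.2) in siCnot1. Its share was thus 4.53 percentage points lower on average in siCnot1, with siNT replicate 1 the library that stood apart: without it the difference was -2.24 points, and without siNT replicate 2 it was -6.83 points. These intervals cover counting error only.

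The other shares moved by less than 2 percentage points. Zscan4f went from 4.25% and 7.30% in siNT to 7.87% and 7.50% in siCnot1, a difference of 1.91 points that fell to 0.386 without siNT replicate 1 and was 3.44 without siNT replicate 2. Zscan4e went from 13.4% and 14.3% to 15.4% and 15.9%, and Zscan4b from 3.07% and 2.77% to 3.69% and 3.19%. Zscan4c was the member whose libraries overlapped between the groups, at 15.8% and 16.7% in siNT and 15.9% and 14.6% in siCnot1. With 2 libraries against 2, an exact two-sided permutation test cannot go below p = 0.33, the value that all members but Zscan4c (p = 0.667) had, so this test could not have called a change in the mix, and no other test of the shares was run. For Zscan4d the difference of 1.31 points was 0.412 without siCnot1 replicate 2, the library with the highest share.

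**Figure D3:**
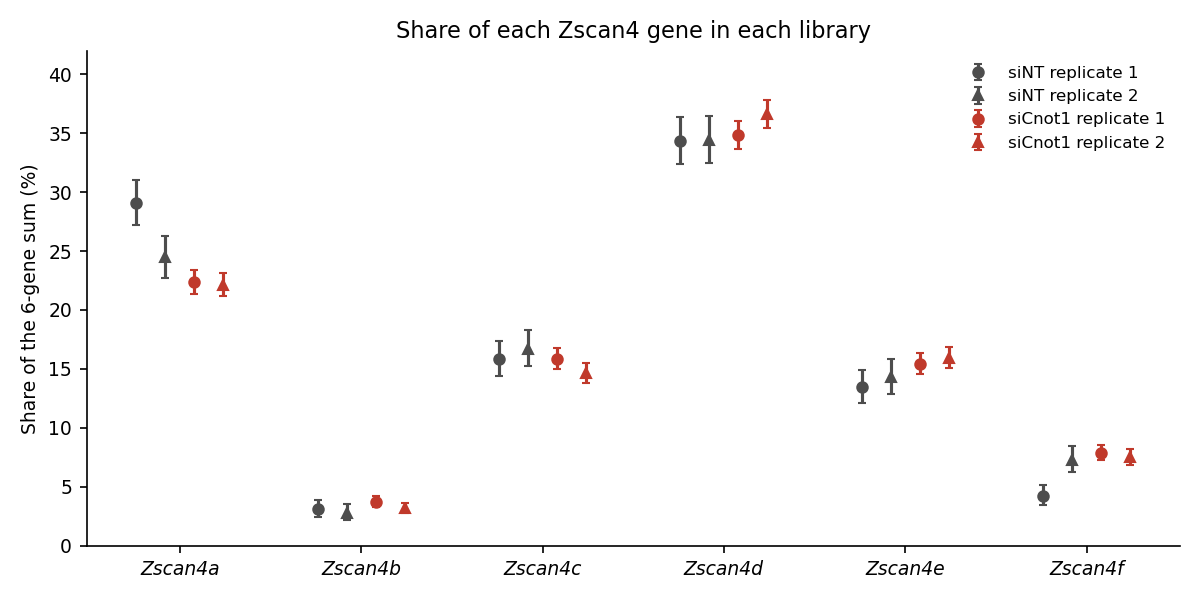
Share of each member in the counts of the 6 Zscan4 genes in each library, with Wilson 95% intervals, for siNT (grey) and siCnot1 (red). Zscan4d holds 34.4% to 36.6% in the 4 libraries, and the library farthest from the others is siNT replicate 1, with more Zscan4a and less Zscan4f.

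The annotated pseudogenes rose as the members did. Zscan4-ps3 had 460 and 434 counts in siNT and 1325 and 1244 in siCnot1 (log2 fold change 1.42, SE 0.104, adjusted p = 1.063e-09). Zscan4-ps2 had 311 and 289 against 765 and 810 (1.29, SE 0.119, adjusted p = 2.755e-08), and Zscan4-ps1 had 102 and 135 against 354 and 418 (1.60, SE 0.180, adjusted p = 4.9e-07). All 3 were higher with no overlap of the groups, the background shares being those given above. Their levels lay within the range of those of the members. Per kb of listed exon Zscan4-ps3 stood at 6.29 ± 0.292 in the siNT libraries and at 16.9 ± 0.739 in the siCnot1 libraries (mean CPM ± SD, n = 2), between Zscan4a and Zscan4c. Zscan4-ps2 stood at 5.25 ± 0.300 and 12.9 ± 0.529, close to Zscan4c, and Zscan4-ps1 at 1.88 ± 0.361 and 5.72 ± 0.675, above Zscan4b alone among the 9 loci. The listed length of Zscan4-ps2 is 1829 bases, whereas its longest GENCODE M21 transcript has 2277, so its place beside Zscan4c depends on the gene model. Zscan4-ps1 is, with Zscan4d, among the loci best told apart, since 87.4% of its windows were found nowhere else, while Zscan4-ps2 had 36.4%. Counted together the 3 pseudogenes held 28.3% and 28.0% of the counts of all 9 loci in siNT and 27.9% in each siCnot1 library. With them the siNT libraries had 3085 and 3064 counts in sum and the siCnot1 libraries 8757 and 8875, a log2 fold change of 1.42 (SE 0.0586, 95% confidence interval 1.30 to 1.54), the same to 2 decimals as that of the 6 members.

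**Figure D4:**
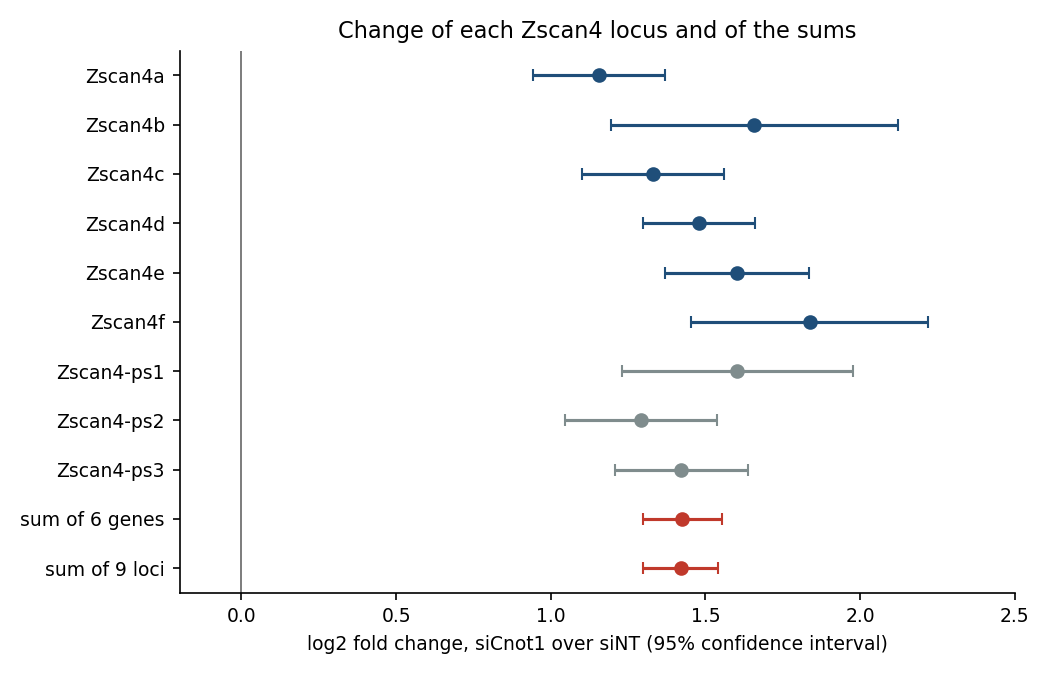
log2 fold change of siCnot1 over siNT with its 95% confidence interval from the edgeR fit, for the 6 Zscan4 genes (blue), the 3 pseudogenes (grey) and the sums over 6 and over 9 loci (red). Every interval lies above 0, the smallest change is that of Zscan4a (1.16), and both sums lie at 1.42.

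Few other genes around the Zscan4 loci had enough counts to be tested. Within 500 kb of the members the table lists 64 other genes, of which 45 had no count in any library and 55 had fewer than 10 counts in total. Only 5 passed the filter, and in edgeR 0 of these passed the adjusted threshold. Of the 5, 2 had an unadjusted p under 0.05 and passed the study's threshold, Gm18204 as higher and Gm6909 as lower. Among all genes tested, 6.18% passed that threshold as higher. Zik1, a zinc finger gene and the only one of the 5 above 1 CPM, was at 17.3 and 22.1 CPM in siNT and 17.7 and 17.5 in siCnot1 (log2 fold change -0.16, 95% confidence interval -0.41 to 0.09). Gm18204 had 6 and 10 counts in siNT and 30 and 16 in siCnot1 (log2 fold change 1.41, unadjusted p = 0.04148, adjusted p = 0.1099), with no overlap of the groups, and Gm6909 had 14 and 11 against 5 and 1 (-2.11, adjusted p = 0.07669). Gm7210 (0.82) and Gm6900 (-0.81) had at most 18 counts in any library. At such counts the error of a log2 fold change is large (SE 0.653 for Gm18204 and 0.887 for Gm6909).

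**Figure D5:**
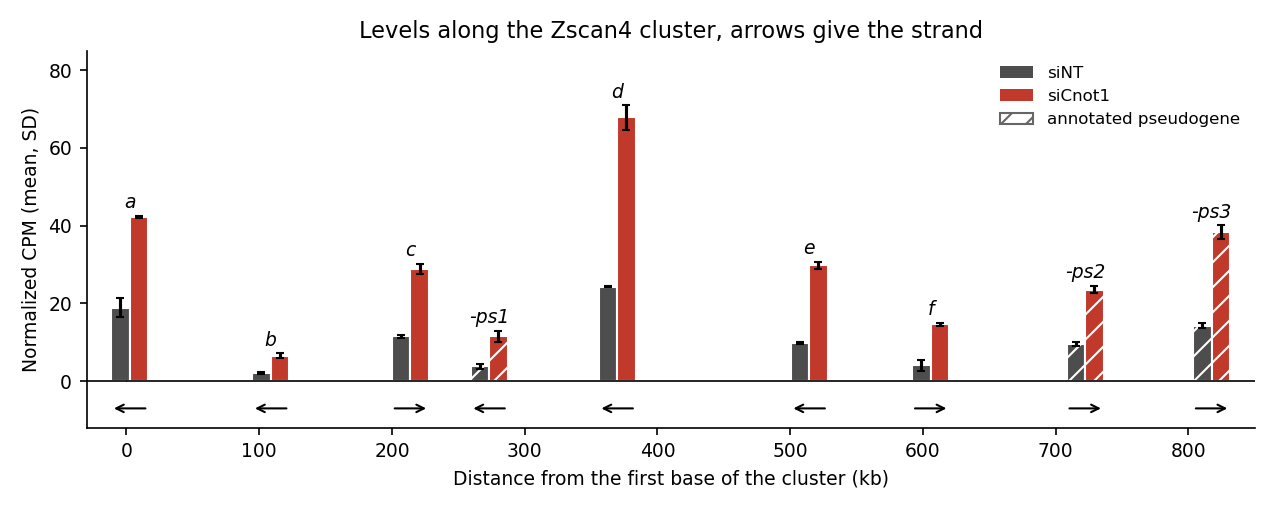
Mean normalized CPM (error bars, SD of 2 libraries) in siNT and siCnot1 at each Zscan4 locus, placed by its distance in kb from the first base of the cluster, with hatched bars for the annotated pseudogenes and arrows for the strand. The red bar is above the grey one at all 9 loci, from 6.53 against 2.07 CPM at Zscan4b to 67.8 against 24.3 CPM at Zscan4d.

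Genes that share the SCAN zinc finger name but lie outside the cluster did not rise as a group. Of 12 such Zscan genes, all of them tested, 1 was higher and 1 lower (median log2 fold change -0.12), which is no more than the 15.0% and 14.7% of all genes tested. Zscan21 was at 35.6 and 31.3 CPM in siNT and 40.1 and 42.1 in siCnot1 (log2 fold change 0.30, SE 0.0941, adjusted p = 0.01917). Zscan10, a cofactor of the pluripotency network, was at 170 and 156 CPM in siNT and 135 and 148 in siCnot1 (-0.20, SE 0.064, adjusted p = 0.02014), a call lost with library totals in place of TMM scaling (adjusted p = 0.2765). Zscan22 (-0.23) and Zscan20 (-0.23) did not pass. The largest change among these 12 genes, 0.30, was below the smallest among the 6 members, 1.16.

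Other genes of the 2C program moved in the same direction as Zscan4. Of 30 such genes outside the cluster, 23 were listed, 20 were tested, 14 were higher and 0 lower (median log2 fold change 1.01), against 15.0% and 14.7% of all genes tested. The list was drawn up with earlier results of these data known and several of its genes are multicopy families, so it is no independent support. Usp17le, one of a family of deubiquitinase genes, was at 6.08 and 6.09 CPM in siNT and 23.7 and 27.1 in siCnot1 (log2 fold change 2.06, SE 0.129, adjusted p = 1.051e-10). Tmem92, a transmembrane protein gene, was at 2.80 and 2.71 CPM against 14.3 and 13.3 (2.32, SE 0.17, adjusted p = 1.106e-09). Usp17la (1.65) and Usp17lb (1.33) followed. Duxf3, under which the table lists the Dux array, had 5 and 0 counts in siNT and 4 and 17 in siCnot1. It was too low to be tested and its groups overlapped, so these counts cannot show whether Dux changed. How reads that fit several places were counted is not given, which bears on the count of an array. By RT-qPCR the study reported higher Dux with both of its Cnot1 siRNAs.

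Genes that are known to set the level of the 2C state or of Zscan4 were, besides Cnot1, changed little. Of 18 regulators tested, 0 were higher and 9, Cnot1 itself among them, were lower (median log2 fold change -0.18). Over all genes tested 15.0% were higher and 14.7% lower. The list pools activators and repressors of the 2C state, and both kinds were among the 9 called lower. Its joint count and median therefore give no direction for that state. Apart from Cnot1 the lowest p belonged to Tbx3, a T-box factor tied to Zscan4 expression, at 260 and 271 CPM in siNT and 207 and 215 in siCnot1 (log2 fold change -0.33, SE 0.0567, adjusted p = 9.254e-05). Ehmt2, a histone H3 lysine methyltransferase, was at 134 and 125 CPM against 102 and 101 (-0.35, SE 0.063, adjusted p = 0.0001956). Trim28, the corepressor that silences endogenous retroviruses, was at 1792 and 1767 CPM against 1508 and 1560 (-0.21, adjusted p = 0.002582), a call lost with library totals in place of TMM (adjusted p = 0.08651). That scaling moves the median of all genes tested from 0.0084 to 0.12 and leaves 3 regulators lower and 1 higher, whereas all 6 Zscan4 genes were higher under it. Ythdf2, the m6A reader at the centre of the study (named here outside the rule, after its values were seen), was at 22.7 and 27.1 CPM in siNT and 23.7 and 23.0 in siCnot1, with overlapping libraries (-0.09, adjusted p = 0.5798, and 0.016 with library totals).

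Genes linked to what ZSCAN4 does, telomere maintenance, recombination and DNA methylation, included both lower and higher genes. Of 16 tested, 8 were lower and 2 higher (median log2 fold change -0.18), against 14.7% lower and 15.0% higher over all genes tested, so that the higher share, 2 of 16, was near that background. Smc1b, a meiotic cohesin subunit, fell from 63.9 and 64.7 CPM to 30.8 and 29.0 (log2 fold change -1.11, SE 0.0851, adjusted p = 2.179e-09). Terf1, a telomere repeat binding protein, fell from 194 and 200 CPM to 136 and 139 (-0.52, SE 0.0583, adjusted p = 4.799e-07). Dnmt3l, a cofactor of de novo DNA methylation, was at 298 and 266 CPM in siNT and 214 and 229 in siCnot1 (-0.35), and Dnmt3b, a de novo methyltransferase, at 83.7 and 91.6 against 70.9 and 70.4 (-0.31). With library totals as scaling these 4 genes were still called lower, and the other 4 of the 8 were not. The 2 genes called higher were Tert, the telomerase reverse transcriptase, at 13.9 and 10.6 CPM in siNT and 19.4 and 14.4 in siCnot1 (0.46, SE 0.148, adjusted p = 0.02026), and Tcstv1, a telomere-linked 2C gene, with 1 and 2 counts in siNT and 11 and 11 in siCnot1 (adjusted p = 0.04632). Neither call held with DESeq2. Tcstv1 passed the filter on low counts only through its siCnot1 libraries, and it is also among the 2C genes called higher above. The log2 fold change of Tert rested on single libraries, being 0.23 without siCnot1 replicate 1, 0.28 without siNT replicate 2, 0.67 without siNT replicate 1 and 0.66 without siCnot1 replicate 2, and only the last was still called.

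Among the 9497 genes with a mean of at least 10 CPM that are no members, the profile over the 4 libraries lying closest to that of the Zscan4 sum was that of Cachd1, a calcium channel subunit-like gene on chromosome 4 (distance 0.0481 on centred log2 CPM). Gm21761 (0.0838), Jag1, a Notch ligand (0.084), Zscan4-ps3 (0.0969) and Usp17lb (0.113) came next. Cachd1 was at 7.14 and 7.15 CPM in siNT and 19.5 and 18.9 in siCnot1, and Jag1 at 6.33 and 6.41 against 16.0 and 16.7. Usp17lb was at 9.32 and 8.87 CPM against 22.3 and 23.5. The mean was taken over all 4 libraries, so Cachd1, Jag1 and Usp17lb reached 10 CPM only through the siCnot1 libraries. The log2 fold changes of the 5 genes ran from 1.33 to 1.42, against 1.42 for the sum, so in 4 libraries of 2 groups the measure picks genes with a difference of that size.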

How the data were processed

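Poly(A)+ RNA of 2 siNT and 2 siCnot1 cultures was sequenced as stranded paired reads. The authors deposited raw counts per gene for each library, with no normalization or pooling. The submitters' processing notes name fastp 0.19.4, HISAT2 2.2.1 and DESeq2 1.40.2 and the build mm10, but the table's positions match GRCm39, and the counting program is not given in the sources used here. RefSeq and GENCODE M21 sequences (GRCm38) were joined by gene name only. The deposited exon length of each gene was used for levels per kb, which no longer sum to a fixed total.

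Counts were scaled by TMM and tested in edgeR 4.0.16 (R 4.3.3; filterByExpr with a minimum count of 10, quasi-likelihood test, condition as the only term, all 4 libraries, Benjamini-Hochberg over the genes tested). SE was taken as the size of the log2 fold change over the root of its F statistic. Sums replaced their loci by 1 row. The fit was tested on simulated data. Alternatives were DESeq2 size factors, upper-quartile factors, library totals, no filter, a filter of 1 CPM reached by 2 libraries, the DESeq2 test (version 1.42.0), limma-voom (limma 3.58.1), the replicate number as a block, each library left out, shares per kb and, added after the data were seen, the pseudogenes as further copies. The members and gene lists were chosen with earlier results of these data known. The genes named were every member, pseudogene and tested neighbour within 500 kb, for each list at most 4 genes with the smallest p and called genes of the opposite direction, Duxf3, Cnot1 and the 5 nearest profiles. Members share sequence, so a level per member holds the split of reads that was used.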

Additional observations from a re-analysis of the deposited data

How the results depend on the processing

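The 6 members, the 3 pseudogenes and both sums were higher in siCnot1 with an adjusted p under 0.05 under each of the 12 alternatives run. The log2 fold change of the 6-gene sum ran from 1.41 to 1.53 and that of the 9-locus sum from 1.41 to 1.53, the highest values coming from library totals as scaling. When single libraries were left out, so that 1 remained in a group and was assumed to vary like the other group, the ranges were 1.03 to 1.29 for Zscan4a, 1.56 to 1.75 for Zscan4b, 1.28 to 1.38 for Zscan4c, 1.43 to 1.52 for Zscan4d, 1.57 to 1.64 for Zscan4e and 1.51 to 2.27 for Zscan4f, with a highest adjusted p of 0.03596. The share of Zscan4e differed by 0.959 points per kb of exon in place of 1.82 points, because its listed exon is the longest.

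The sources used here do not say whether libraries of the same replicate number were paired. Over 18144 genes, which are not independent, a library's distance from its group mean had a correlation of 0.0109 with that of the same-numbered library. Counting noise is part of these distances, so a value near 0 cannot exclude a pairing. With the replicate block the 6-gene sum changed by 1.42 and the count of genes called higher among factors tied to ZSCAN4 went from 2 to 1; all 6 members were called.

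The smaller counts depended on the processing, and the cause was not tested. Among all genes tested, 2719 were higher and 2668 lower. Library totals gave 3999 and 1563, with a median log2 fold change of 0.12; no filter gave 1303 and 1450; leaving out a library gave 625 to 1989 higher and 705 to 1960 lower. The 9 regulators called lower became 3 (with 1 higher) under library totals, 5 without a filter and 2 to 7 without a library. The 8 factors tied to ZSCAN4 called lower became 4 under library totals and 3 to 8 without a library. The 2 called higher became 0 without a filter and with DESeq2, 1 with the 1 CPM filter and with limma-voom, and 0 to 1 without a library. Of the other Zscan genes, 1 higher and 1 lower, the higher call was lost (0) without a filter and whichever library was left out, and the lower call was lost (0) under library totals and without a filter, with 0 to 1 without a library. Of 427 values for 36 other named genes, 355 kept their direction and their side of the threshold, 67 lost their call (45 of these with a library left out), 1 gained one and 4 changed sign. Those 4 belong to genes that were not called: Gm6900 (-1.59 to 0.38 with each library left out), Zik1 (-0.33 to 0.027) and Ythdf2 (-0.21 to 0.044, and 0.016 with library totals). With the replicate block the calls of Tcstv1, Sox2 and Tfcp2l1 were lost (adjusted p = 0.0739, 0.05699 and 0.05905). Low counts limit the precision of the tested neighbours other than Zik1, and Duxf3 was not tested.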
